A study of Mus musculus with 8 samples.

Results

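Cholesterol genes are described here in mouse trophectoderm at embryonic day 4.5, from pools of dams on a high fat diet and pools of dams on a control diet. The set comprised 34 genes chosen by name, covering the enzymes of cholesterol synthesis, the sensors that control them, and the transport and export of cholesterol. A gene was measured where the platform annotation gave a probe set that symbol alone, which held for 28 of the 34, out of 14860 genes measured in all. Tm7sf2 and Mbtps2 stood only in probe sets with several symbols and were not analysed, nor were Acat2, Idi1, Soat1 and Nr1h2. Each measured member had a single probe set.

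Trophectoderm, the outer cell layer of a blastocyst, attaches to the uterus and forms the trophoblast of the placenta. High fat diet pools came from C57BL/6J females fed Teklad 06414 and control diet pools from C57BL/6J females fed Lab Diet 5015, in both cases from weaning to 16 weeks, when they were mated to C57BL/6J males. Each of the 8 samples, 4 per diet, held tissue cut from the side of 5 blastocysts opposite the inner cell mass, and was hybridised to 1 Affymetrix array. The sources used here do not give which dams supplied a pool, so the p-values rest on how pools varied, and effects of fat and of other components of these 2 products cannot be told apart.

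Cells make cholesterol from acetyl-CoA through mevalonate, squalene and lanosterol. When sterol in the endoplasmic reticulum is low, SCAP escorts the transcription factor SREBP2 to the Golgi, where the proteases S1P and S2P release it to switch on the enzymes of the pathway. INSIG proteins hold SCAP back when sterol is plentiful, and the liver X receptors (LXR), which sense oxysterols, switch on cholesterol export. Mouse embryos need this pathway, and defects in its late steps disturb development.

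Values are log2 signals from 8 arrays, a number that limits precision. The level of unspecific signal was taken as the 95th percentile, on each array, of 834 probe sets for olfactory, vomeronasal and taste receptors, and is called background below. It lay between 6.13 and 6.60 on high fat diet arrays and between 5.86 and 6.11 on control diet arrays. The median of all 16015 tested probe sets was 5.83 ± 0.09 in high fat diet pools and 5.65 ± 0.05 in control diet pools (SD, n = 4 each), an upward shift shared by most probe sets. High fat diet replicate 3 stood apart, with the highest background and a mean correlation of 0.832 to the rest, where other pools had 0.879 to 0.890. Of 9 measured trophectoderm markers, 7, among them Cdx2, Krt18 and Gata3, lay above background on every array. Gata3, a trophectoderm transcription factor, read at 10.70, 10.40, 9.53 and 7.97 in high fat diet replicates 1 to 4, against 11.23, 11.11, 11.42 and 10.81 in control diet replicates 1 to 4, with no overlap (log2 difference -1.49, SE 0.56, limma adjusted p = 0.132). Among the other trophectoderm markers, Elf5 also read lower with the high fat diet, by -0.42, with overlapping groups. Hand1, Gata2, Krt18, Tead4, Eomes, Cdx2 and Tfap2c differed by +0.07 to +0.43. Summed log2 signal of the 9 markers ran from 69.9 to 75.3 in high fat diet pools and from 72.5 to 74.3 in control diet pools.

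Markers of other cell types were also read. Of the 6 inner cell mass and epiblast markers, 3 lay above background on every array, and their summed log2 signal ran from 40.1 to 42.4 in high fat diet pools and from 35.9 to 49.4 in control diet pools. For 6 primitive endoderm markers it ran from 44.1 to 45.5 in high fat diet pools and from 42.7 to 43.5 in control diet pools. For 6 uterine markers the sum was 34.4 to 36.4 in high fat diet pools and 32.7 to 33.6 in control diet pools, and for 3 blood and immune markers it was 16.2 to 16.7 in high fat diet pools and 15.6 to 15.7 in control diet pools. These last 3 sums were higher in every high fat diet pool, as was the array median. Sox2, Pdgfra, Ltf, Muc1, Calb1, Pgr, Ptprc and Cd74 lay above background on no array. The uterine markers Col1a1 and Col3a1, the blood and immune marker Cx3cr1 and 4 primitive endoderm markers lay above it on all 8. Col1a1, Col3a1 and Cx3cr1 read higher in every high fat diet pool than in any control diet pool, as did 25.4% of all tested probe sets. The part of other cells in the results below was not tested, and fewer cells of a type cannot be told apart from less RNA per cell.

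None of the 28 measured cholesterol genes passed the test for a diet difference. The diets were compared with limma over all 16015 probe sets, with Benjamini-Hochberg adjustment and a threshold of 0.05, and the members' adjusted p-values ran from 0.115 to 0.951. Over the whole array 1 probe set passed, or 0.00624% of those tested. At an unadjusted limma p under 0.05, 7 members read higher with the high fat diet (Scap, Lss, Abcg1, Srebf2, Abca1, Mvk and Cyp51) and 0 lower. That is 25% of the members, beside 30.1% of all tested probe sets in the higher direction and 1.79% in the lower direction. All 4 high fat diet pools lay above all 4 control diet pools for 5 members (Lss, Cyp51, Scap, Nr1h3 and Abca1), or 17.9%, against 25.4% of all probe sets. The opposite separation was seen for 0 members, against 0.855% of all probe sets. The members' shares are near or below those of the array as a whole, so they do not mark out cholesterol genes.

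The median log2 difference of the members, high fat diet minus control diet, was +0.16, beside +0.22 for all tested probe sets. Relative to that overall median, 13 members lay above it and 15 below. With each gene centred over the 8 arrays, the median of the members was -0.07, -0.06, +0.26 and +0.11 in high fat diet replicates 1 to 4, against -0.23, -0.13, -0.17 and -0.03 in control diet replicates 1 to 4. The median of all probe sets followed a similar course, at +0.05, -0.003, +0.26 and +0.08 in high fat diet pools and -0.18, -0.13, -0.13 and -0.07 in control diet pools. The members' median thus stayed within 0.118 log2 units of the median of all probe sets on every array.

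**Figure D1:**
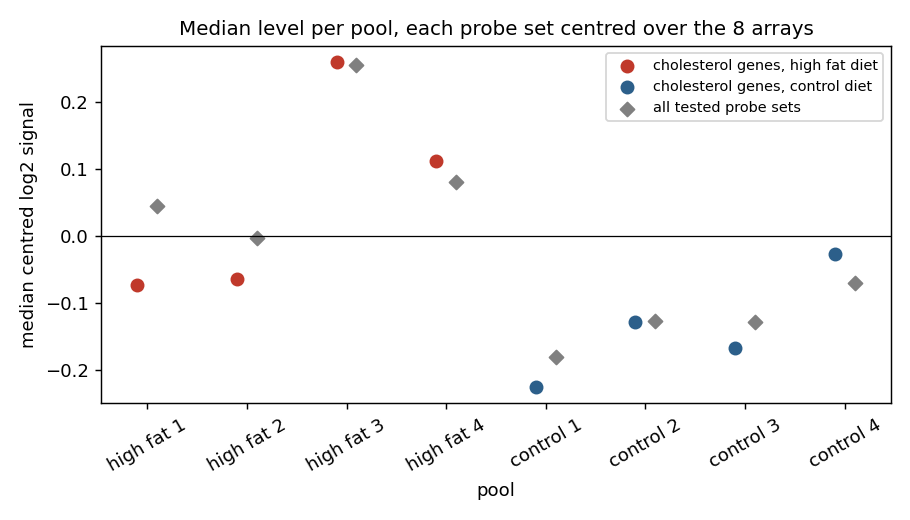
Median centred log2 signal (vertical axis) of the 28 measured cholesterol genes (circles) and of all 16015 tested probe sets (diamonds) in each pool (horizontal axis). The cholesterol genes followed the array as a whole, with high fat diet replicate 3 highest at +0.26 and control diet replicate 1 lowest at -0.23.

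Signal of many members was faint. Of the 28, 11 lay above background on no array (Hmgcs1, Pmvk, Fdps, Lss, Cyp51, Hsd17b7, Ebp, Sc5d, Insig2, Nr1h3 and Abca1), a share of 39.3% against 49.1% of all tested probe sets. Another 9 lay above it on all 8 arrays, or 32.1% against 25.0%: Mvk, Mvd, Lbr, Srebf2, Insig1, Npc1, Npc2, Stard4 and Abcg1. The remaining 8 lay above it on some arrays. Differences of the 11 faint genes are read within unspecific signal, so no rise or fall is drawn from them. Their median difference was +0.24, beside +0.20 for the receptor probe sets themselves.

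**Figure D2:**
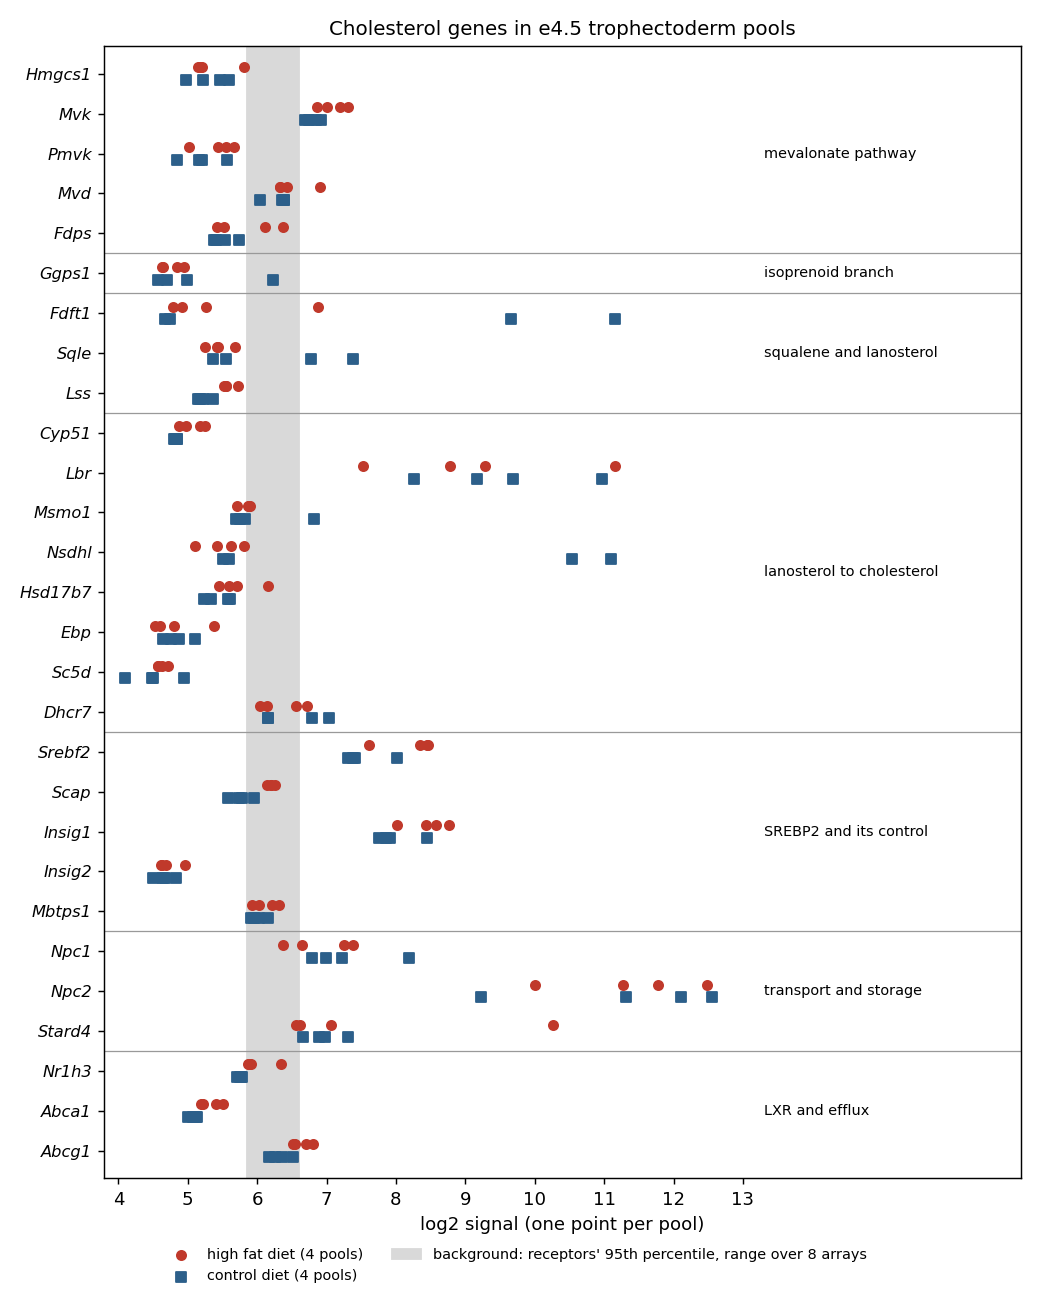
Log2 signal (horizontal axis) of each measured cholesterol gene in 4 high fat diet pools (red circles) and 4 control diet pools (blue squares), grouped by role. The grey band spans the background levels of the 8 arrays (5.86 to 6.60); levels of different genes are not comparable, since probe sets differ in sensitivity. Fdft1, Sqle and Nsdhl each have 2 control diet pools far to the right of the other 2.

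By group median, the sensing machinery read highest relative to the array. Its 5 measured members, Srebf2, Scap, Insig1, Insig2 and Mbtps1, had a median log2 difference of +0.43, and all 5 differences were above 0, though 3 of the 5 exceeded the overall median of +0.22. That median is the value of Scap, which lay mostly within background, and only Srebf2 and Insig1 lay above background on all 8 arrays. Srebf2 encodes SREBP2 itself. Its log2 signal was 8.35, 7.61, 8.45 and 8.47 in high fat diet replicates 1 to 4, against 7.31, 7.40, 7.38 and 8.02 in control diet replicates 1 to 4. High fat diet replicate 2 fell within the control range and control diet replicate 4 within the high fat range, so the groups overlapped. The group means were 8.22 ± 0.41 for the high fat diet and 7.53 ± 0.33 for the control diet (SD, n = 4 each), a log2 difference of +0.69 with an SE of 0.24 and a 95% interval from +0.13 to +1.25 (limma adjusted p = 0.124).

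Insig1, which retains SCAP in the endoplasmic reticulum and is itself a known SREBP2 target, read at 8.58, 8.43, 8.77 and 8.01 in high fat diet pools, against 7.92, 7.75, 8.44 and 7.86 in control diet pools. Control diet replicate 3 read above high fat diet replicates 2 and 4, so the groups overlapped. Its log2 difference was +0.45 with an SE of 0.21 and an interval from -0.03 to +0.94 (limma adjusted p = 0.172), and the difference ran from +0.27 to +0.80 over the alternatives. Srebf2 and Insig1 lay above background on all 8 arrays. Scap, the escort of SREBP2, read at 6.14, 6.20, 6.26 and 6.20 in high fat diet pools, against 5.59, 5.74, 5.79 and 5.96 in control diet pools, with no overlap. It exceeded background on 1 of 4 high fat diet arrays and 0 of 4 control diet arrays. Its difference of +0.43 (SE 0.09, limma adjusted p = 0.115) is therefore read almost wholly within background.

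Mbtps1, the S1P protease, differed by +0.10 (interval -0.15 to +0.36), and lay above background on 1 control diet array alone. Insig2, the second retention factor, differed by +0.06 (interval -0.20 to +0.32) and lay above background on no array.

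**Figure D3:**
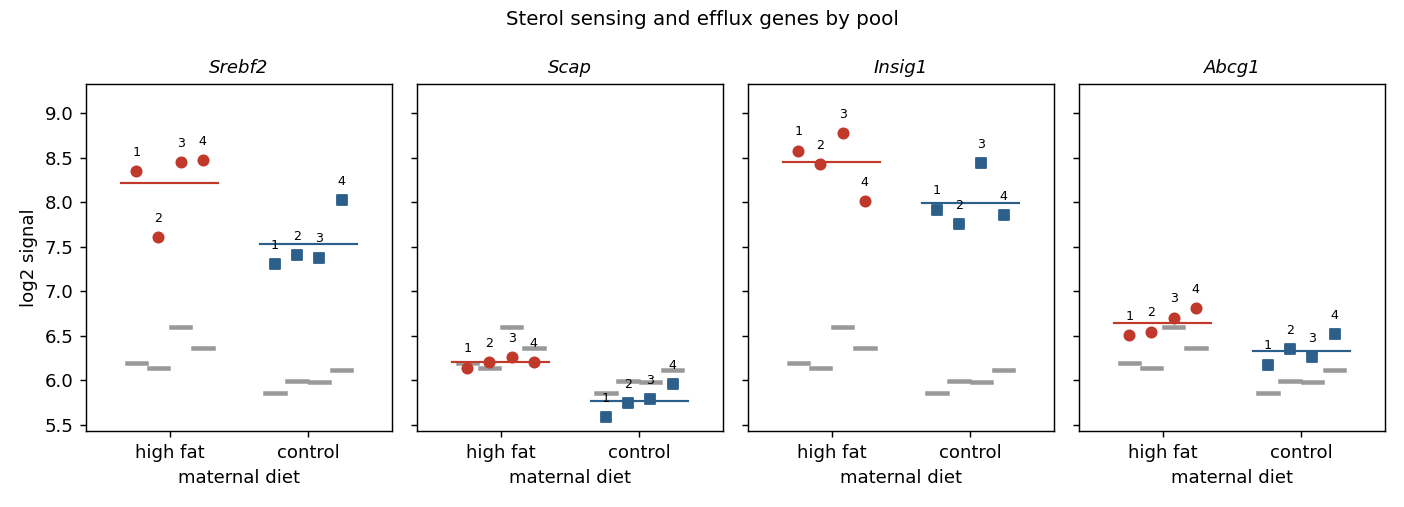
Log2 signal (vertical axis) of Srebf2, Scap, Insig1 and Abcg1 by maternal diet, high fat left and control right; points are pools labelled by replicate number, coloured lines are group means and grey dashes are each array's background. Groups overlapped for Srebf2, Insig1 and Abcg1. Scap lay close to background, and Abcg1 lay above it but below the 99th percentile of the receptors.

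Genes of cholesterol export read slightly above the array shift at most. Abcg1, a transporter that passes cholesterol to lipoproteins, read at 6.51, 6.55, 6.70 and 6.81 in high fat diet pools, against 6.18, 6.35, 6.26 and 6.52 in control diet pools. Control diet replicate 4 overlapped the lowest high fat diet pool. Abcg1 lay above background on all 8 arrays, but above the 99th percentile of the receptors on none. The log2 difference was +0.31 with an SE of 0.11 (limma adjusted p = 0.123), or +0.10 above the overall median, and +0.012 after cyclic loess scaling. Abca1, which loads cholesterol onto apolipoprotein A-I, and Nr1h3, the receptor LXR alpha, differed by +0.25 each and lay above background on no array.

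Promoter windows of 4 members are shown because the pathway is known for shared control by SREBP2 together with the factors NF-Y and SP1. They are Nsdhl, Hmgcs1, Srebf2 and Insig1. Nsdhl varied widely in signal between pools, and Hmgcs1 holds the closest match to a sterol regulatory element among the members with a window. Srebf2 and Insig1 were measured above background on every array. Each runs from 250 bases before to 50 after the gene's start, 5′ to 3′ on the gene's strand, from RefSeq on GRCm38.p6. Capitals mark matches on either strand to a sterol regulatory element (TCACNCCAC or the looser TCACNCNAC, which includes it), an E-box (CACGTG) or a CCAAT box (CCAAT, reverse ATTGG). Nsdhl lies at chrX:72918271-72918570 (plus strand), Hmgcs1 at chr13:119690101-119690400 (plus strand), Srebf2 at chr15:82147019-82147318 (plus strand) and Insig1 at chr5:28071162-28071461 (plus strand).
Nsdhl: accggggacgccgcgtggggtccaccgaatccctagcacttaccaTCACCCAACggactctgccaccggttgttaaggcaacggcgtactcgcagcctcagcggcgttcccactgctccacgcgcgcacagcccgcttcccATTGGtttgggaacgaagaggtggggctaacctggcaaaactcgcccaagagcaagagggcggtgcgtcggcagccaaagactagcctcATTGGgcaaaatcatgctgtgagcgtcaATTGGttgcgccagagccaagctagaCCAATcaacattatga
Hmgcs1: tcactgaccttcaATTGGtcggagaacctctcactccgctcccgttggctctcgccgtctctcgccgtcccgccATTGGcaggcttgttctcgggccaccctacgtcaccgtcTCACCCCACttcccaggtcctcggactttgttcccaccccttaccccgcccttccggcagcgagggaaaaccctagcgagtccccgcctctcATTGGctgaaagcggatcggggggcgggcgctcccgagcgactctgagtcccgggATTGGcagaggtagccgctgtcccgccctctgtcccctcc
Srebf2: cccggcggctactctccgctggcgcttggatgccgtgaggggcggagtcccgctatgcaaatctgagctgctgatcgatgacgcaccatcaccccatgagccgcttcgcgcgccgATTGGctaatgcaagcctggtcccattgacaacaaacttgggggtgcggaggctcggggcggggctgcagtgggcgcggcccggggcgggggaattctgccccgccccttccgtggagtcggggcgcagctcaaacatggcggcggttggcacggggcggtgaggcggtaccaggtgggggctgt
Insig1: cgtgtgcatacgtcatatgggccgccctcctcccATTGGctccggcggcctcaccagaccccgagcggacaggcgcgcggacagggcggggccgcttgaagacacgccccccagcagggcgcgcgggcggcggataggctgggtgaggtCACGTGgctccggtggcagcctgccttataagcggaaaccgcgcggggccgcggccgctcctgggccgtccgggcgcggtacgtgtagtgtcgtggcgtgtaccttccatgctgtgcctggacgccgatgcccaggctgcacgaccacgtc

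The table held 29 windows for 22 of the 28 measured members, some genes having several starts. Fdps, Fdft1, Sqle, Npc1, Stard4 and Abcg1 had no window and were not searched. TCACNCCAC was found in 1 of 29 member windows, that of Hmgcs1, against 1.19% of 21262 windows of protein-coding genes. The looser TCACNCNAC was found in 2 of 29, in Hmgcs1 and Nsdhl, against 2.79%. CCAAT boxes were found in 18 of 29 member windows against 38.2%, and Nsdhl and Hmgcs1 each held 4. E-boxes were found in 7 of 29 against 7.84%, in Abca1, Dhcr7, Hsd17b7, Insig1, Sc5d and Scap. The GC box GGGCGG, bound by SP1 and left in lower case above, was found in 22 of 29 against 46.2%. A match describes the letters of the window and does not show that a factor binds there.

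Fdft1 and Nsdhl had the widest range over the 8 arrays of all members, and for both, and for Sqle, the spread was larger among control diet pools. Fdft1, squalene synthase, which commits the pathway to sterols, read at 5.26, 4.79, 6.88 and 4.92 in high fat diet replicates 1 to 4, against 4.68, 11.15, 4.74 and 9.66 in control diet replicates 1 to 4. Nsdhl, which removes carbon from the C-4 position of sterols and is X-linked, read at 5.82, 5.42, 5.11 and 5.62 in high fat diet pools, against 5.51, 11.10, 5.59 and 10.54 in control diet pools. Sqle, squalene epoxidase, the oxygen-dependent step after squalene, read at 5.42, 5.68, 5.44 and 5.25 in high fat diet pools, against 5.37, 7.38, 5.55 and 6.78 in control diet pools. All 3 enzymes were thus high in control diet replicates 2 and 4 and near or below background in control diet replicates 1 and 3. In high fat diet pools Nsdhl and Sqle lay above background on 0 of 4 arrays, and Fdft1 on 1 of 4, replicate 3.

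These levels do not separate the diets. The groups overlapped for all 3 genes: control diet replicates 1 and 3 read among the high fat diet pools for Nsdhl and Sqle, and for Fdft1 they read below all high fat diet pools while control diet replicates 2 and 4 read above them. The log2 difference was -2.69 for Nsdhl (SE 1.36, interval -5.86 to +0.48, limma adjusted p = 0.202). For Fdft1 it was -2.09 (SE 1.55, interval -5.69 to +1.51, limma adjusted p = 0.347). For Sqle it was -0.82 (SE 0.44, interval -1.85 to +0.21, limma adjusted p = 0.222). Nsdhl lay within background in every high fat diet pool. With those values raised to background and control diet values as read, its high fat diet mean was 3.63-fold lower for the 95th percentile of the receptors. For the 99th percentile it was 2.16-fold lower. Control diet replicates 1 and 3 also lay within background, so these folds are not lower bounds, and they do not count the spread between pools. The log2 differences of the 3 genes depended on control diet replicates 2 and 4. Without replicate 2 the differences were -1.72 for Nsdhl, -0.90 for Fdft1 and -0.45 for Sqle, and without replicate 4 they were -1.90, -1.39 and -0.65 in the same order of genes. Without control diet replicate 1 they were -3.58, -3.05 and -1.12.

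**Figure D4:**
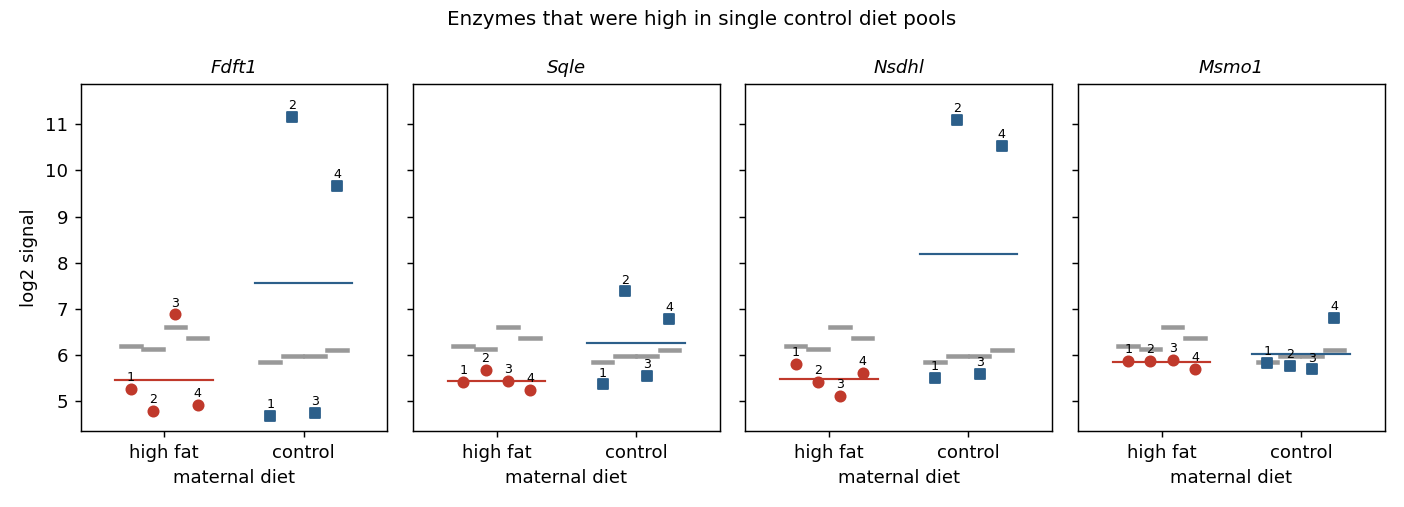
Log2 signal (vertical axis) of Fdft1, Sqle, Nsdhl and Msmo1 by maternal diet, high fat left and control right; points are pools labelled by replicate number, coloured lines are group means and grey dashes are each array's background. Control diet replicates 2 and 4 stand above all other pools for the first 3 genes, at 11.15 and 9.66 for Fdft1, and control diet replicate 4 alone for Msmo1 (6.81).

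Few probe sets on the array shared the profile of Fdft1 and Nsdhl, which Sqle showed at a smaller margin. How many probe sets stand out in other pairs of arrays was not counted. A probe set was counted when both control diet replicates 2 and 4 exceeded all 6 other arrays by more than 2 log2 units, a pattern chosen after the values were seen and given with no test. It held for 9 of 16015 probe sets (0.0562%), among them Nsdhl, with a margin of 4.72, and Fdft1, with a margin of 2.78. The 6 other genes named by 1 symbol were Ggct, Tubb2a, Med6, Ypel2, Uqcc2 and Chek1. With a margin of 1 log2 unit, chosen likewise, the count was 32 probe sets (0.2%), which included Sqle at a margin of 1.10. The other 25 measured cholesterol genes did not show it. Msmo1, the C-4 sterol methyl oxidase that acts just before Nsdhl, read at 6.81 in control diet replicate 4 but between 5.69 and 5.82 in the other control diet pools, and between 5.70 and 5.90 in high fat diet pools.

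Marker genes of these pools differed too. Krt18, a keratin of trophectoderm, read at 12.45 to 12.90 in high fat diet pools, and at 12.84, 12.01, 12.83 and 11.40 in control diet replicates 1 to 4, so it was lowest in control diet replicates 2 and 4. Eomes, also a trophectoderm marker, went the other way among control diet pools, at 7.66, 8.19, 7.57 and 8.76. Summed signal of the trophectoderm markers was 73.0, 73.9, 74.3 and 72.5 in control diet replicates 1 to 4. Summed signal of the inner cell mass and epiblast markers was 49.4 in control diet replicate 2, the highest of all pools, and 39.7 in control diet replicate 4, within the range of the rest. Tdgf1, an epiblast gene, exceeded background in control diet replicate 2 alone, at 10.33. Pou5f1, from the same list, read at 7.83, 11.72, 7.02 and 9.20 in control diet replicates 1 to 4, and at 8.15 to 9.66 in high fat diet pools. The part of these differences in the enzyme levels was not tested.

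Early enzymes of the mevalonate pathway read near the array shift, but 3 of the 5 measured lay within background, so no absence of change is drawn for these 3. The 5 members had log2 differences from +0.02 to +0.34 with a median of +0.22, equal to the array shift to 2 decimals. That median is the value of Pmvk, 1 of the 3 faint genes. Mvk, mevalonate kinase, read at 6.86, 7.0, 7.32 and 7.19 in high fat diet pools, against 6.75, 6.86, 6.68 and 6.92 in control diet pools, and high fat diet replicate 1 fell within the control diet range. Its difference was +0.29 (SE 0.12, limma adjusted p = 0.146). Mvd, which makes isopentenyl diphosphate, read at 6.33, 6.33, 6.91 and 6.42 in high fat diet pools, against 6.04, 6.36, 6.39 and 6.39 in control diet pools, a difference of +0.20 (interval -0.17 to +0.57). Hmgcs1, which forms HMG-CoA, differed by +0.02, Pmvk, phosphomevalonate kinase, by +0.22, and Fdps, farnesyl diphosphate synthase, by +0.34, all 3 above background on no array. Ggps1, which diverts farnesyl diphosphate to protein prenylation, differed by -0.36 (interval -1.17 to +0.46) and exceeded background in control diet replicate 3 alone, at 6.23.

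Of the enzymes after squalene, Lss, which closes the ring of lanosterol, read at 5.56, 5.55, 5.72 and 5.52 in high fat diet pools, against 5.22, 5.15, 5.18 and 5.37 in control diet pools. The groups lay apart, but all 8 values were below background, and the difference of +0.35 (SE 0.09, limma adjusted p = 0.115) was +0.14 above the overall median. The 8 measured genes of the lanosterol to cholesterol steps had a median difference of -0.09, with 3 above 0 and 5 below. Cyp51, lanosterol demethylase, differed by +0.24 and Hsd17b7, a sterol ketone reductase, by +0.29. Sc5d, the desaturase of late sterols, differed by +0.11 and Ebp, a sterol isomerase, by -0.02. All 4 lay above background on no array. Dhcr7, which makes cholesterol from its immediate precursor, read at 6.15, 6.04, 6.72 and 6.56 in high fat diet pools, against 6.15, 6.79, 7.04 and 6.15 in control diet pools. The pools of both diets spanned a similar range, and the difference was -0.17 (interval -0.76 to +0.43). Dhcr7 lay above background on 2 of 4 high fat diet arrays and 4 of 4 control diet arrays.

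Lbr encodes a sterol reductase that is also a receptor for lamin B at the inner nuclear membrane. It was above background on all arrays, at 8.78, 9.28, 7.53 and 11.16 in high fat diet pools, against 9.69, 10.97, 8.26 and 9.17 in control diet pools. The spread within each diet exceeded the difference of -0.34 (SE 0.84), and the sign turned without high fat diet replicate 3 (+0.22) or without control diet replicate 2 (+0.15).

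Transport genes were above background in every pool and did not separate the diets. Npc2, which hands cholesterol to NPC1 in the lysosome, read at 10.01, 11.28, 12.48 and 11.78 in high fat diet pools, against 12.11, 9.23, 12.55 and 11.32 in control diet pools. Its difference of +0.09 was small beside an SE of 0.80. Npc1, the lysosomal exporter, read at 6.38, 7.38, 7.25 and 6.65 in high fat diet pools, against 8.18, 7.23, 6.99 and 6.79 in control diet pools, a difference of -0.39 (interval -1.20 to +0.43). Stard4, a soluble sterol carrier and known SREBP2 target, read at 6.56, 7.07, 6.62 and 10.27 in high fat diet pools, against 6.98, 6.90, 7.31 and 6.66 in control diet pools. A single pool, high fat diet replicate 4, made its difference of +0.67 (SE 0.80), which was -0.21 without that pool.

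**Figure D5:**
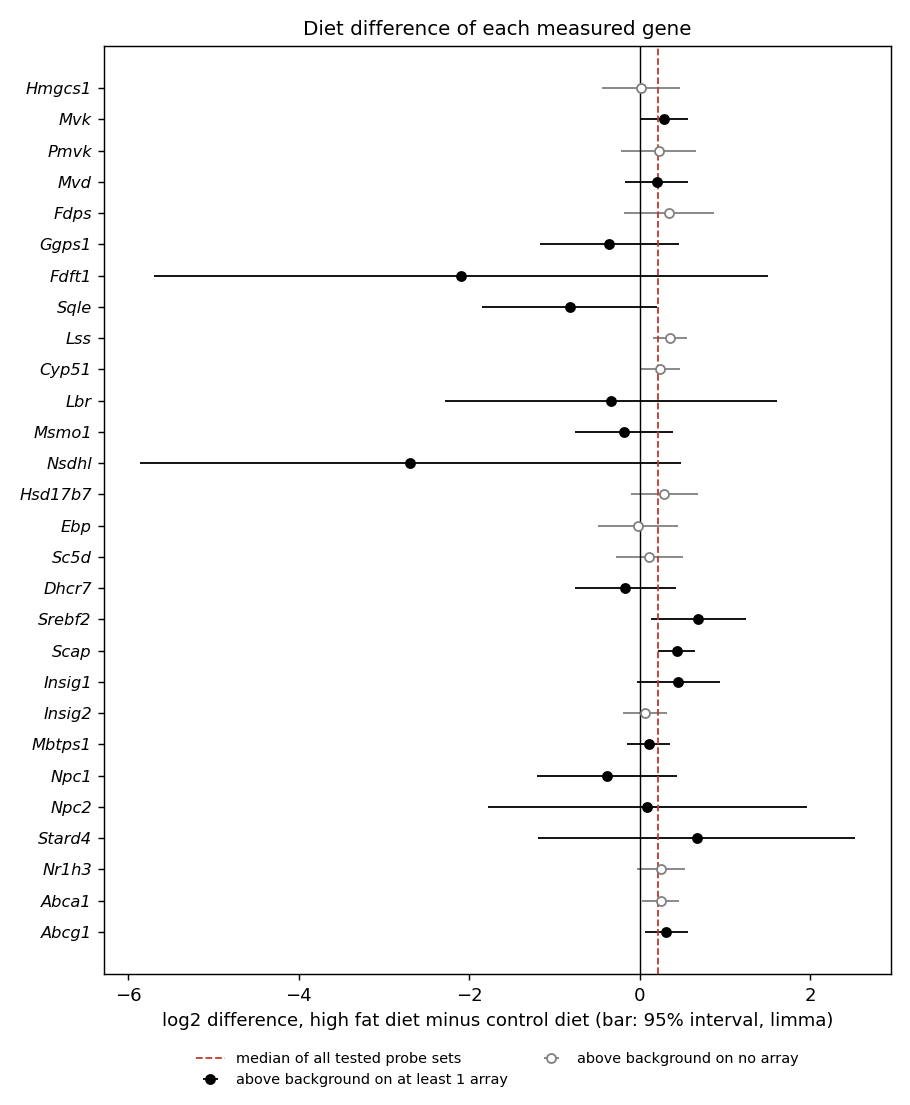
Log2 difference, high fat diet minus control diet (horizontal axis), of each measured cholesterol gene, with 95% limma intervals as bars; open symbols are genes above background on no array, the solid line is 0 and the dashed line the median of all tested probe sets (+0.22). Nsdhl and Fdft1 have the lowest values (-2.69 and -2.09) and the widest intervals, and 20 of the 28 genes have an interval that includes both 0 and the dashed line.

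Other genes of sterol and isoprenoid metabolism were read from a list of 60, of which 46 were measured. None passed over all probe sets. At an unadjusted limma p under 0.05, 10 read higher and 1 lower, beside 30.1% and 1.79% of all tested probe sets, and the median difference was +0.19. The 4 with the smallest p in the higher direction were Cyp27a1, a mitochondrial oxysterol-forming enzyme (6.88 ± 0.17 in high fat diet pools and 6.46 ± 0.10 in control diet pools, SD, n = 4 each), Rxrb, a partner of LXR (+0.63), Mylip, an LXR-induced ligase that degrades lipoprotein receptors (+0.37), and Lrp8, a lipoprotein receptor (+0.39). In the lower direction they were Osbpl9, an oxysterol-binding protein relative (6.14 ± 0.25 in high fat diet pools and 7.05 ± 0.50 in control diet pools, SD, n = 4 each), Erg28, a scaffold of the C-4 demethylation enzymes (-1.31), Osbpl8 (-0.61) and Rnf139, a ligase of the sterol-regulated endoplasmic reticulum (-0.26). The log2 difference of Osbpl9 was -0.91 (SE 0.25, limma adjusted p = 0.115), and it exceeded background on 1 of 4 high fat diet arrays and 4 of 4 control diet arrays. Erg28 (interval -2.75 to +0.14), Osbpl8 and Rnf139 did not reach an unadjusted limma p under 0.05. Rnf139 lay above background on no array.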

How the data were processed

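The authors deposited log2 values for 23332 probe sets on 8 arrays, made with RMA and Partek per the submitters' processing notes, which give no versions. Per the labels' protocols, RNA went through 2 rounds of amplification, which can add spread at low input. The sources used here do not give RMA settings or a genome build. Columns were assigned to samples through their labels, with 0 left over.

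Symbols came from the platform annotation, updated through RefSeq (GRCm38.p6). The 16015 probe sets with a symbol (14996 with 1, 1019 with several) were fitted with limma 3.58.1 in R 4.3.3 (lmFit, eBayes, two-sided, Benjamini-Hochberg), without a filter or a replicate block. The code was also run on simulated arrays with independent values and no array-wide shift. That run checks the code and not how the fit handles the shift in these arrays. Levels are not compared between genes. All members are reported; of the other pathway genes, up to 4 in each direction with the smallest unadjusted limma p are named. Members, lists and pathway genes were chosen with earlier results of these data known. Alternatives varied the filter on dim probe sets, scaling, the variance model, the block, the background percentile and the arrays included.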

Additional observations from a re-analysis of the deposited data

Results flagged for a closer look

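In 9 of the 56 sets of 4 pools, 28 genes in each of 2 diets, 1 pool stood far from the other 3, by Dixon's test at the 95% level. Chance alone gives about 1 in 20 such sets, and genes share arrays. Stard4 was high in high fat diet replicate 4 (10.27). Srebf2 was low in high fat diet replicate 2 (7.61) and high in control diet replicate 4 (8.02). Msmo1 was low in high fat diet replicate 4 (5.70) and high in control diet replicate 4 (6.81). It lay above background in no high fat diet pool. Mvd was high in high fat diet replicate 3 (6.91) and low in control diet replicate 1 (6.04). Nr1h3 was high in high fat diet replicate 3 (6.35) and Hmgcs1 in high fat diet replicate 1 (5.81), both genes being above background on no array. Fdft1, Sqle and Nsdhl are not among these, since 2 control diet pools of 4 were high together.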

How the results depend on the processing

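No member passed the limma threshold under any alternative run, and the lowest adjusted p of any member was 0.0743 (array weights, for Lss and Scap). The 7 members higher at an unadjusted p under 0.05 became 3 of 17 with dim probe sets left out (Lss, Cyp51 and Abca1 of the 7 were among the 11 members removed), 3 with median centring, 4 with quantile normalization and 1 with cyclic loess, Srebf2; the last also gave 1 lower, Sqle. Leaving out single arrays gave 2 to 6 higher and 0 to 2 lower, with 2 higher and 2 lower (Sqle and Nsdhl) without control diet replicate 1, 3 higher without control diet replicate 2 or high fat diet replicate 3, 4 without high fat diet replicate 4, and 4 higher with 1 lower (Nsdhl) without control diet replicate 3. The members' median of +0.16 was -0.0286 with median centring, +0.0305 with quantile normalization and -0.055 with cyclic loess, where that of all probe sets was +0.03, +0.06 and -0.001. Over all settings Srebf2 stayed between +0.50 and +0.95, Insig1 between +0.27 and +0.80 and Nsdhl between -3.58 and -1.72. Signs turned with median centring for Hmgcs1 (-0.17), Sc5d (-0.073), Insig2 (-0.125), Mbtps1 (-0.082) and Npc2 (-0.098), with quantile normalization for Hmgcs1 (-0.16), Sc5d (-0.065), Insig2 (-0.12) and Mbtps1 (-0.091), with cyclic loess for Hmgcs1 (-0.22), Pmvk (-0.0125), Mvd (-0.099), Sc5d (-0.085), Insig2 (-0.14), Mbtps1 (-0.18) and Nr1h3 (-0.025), and with array weights for Npc2 (-0.24); the cause was not tested. With an array left out they turned in the ranges of Hmgcs1 (-0.14 to +0.11), Ebp (-0.20 to +0.079), Lbr (-0.99 to +0.22), Npc2 (-0.60 to +0.55), Insig2 (-0.018 to +0.12), Stard4 (-0.21 to +1.02), Ggps1 (-0.54 to +0.014), Sc5d (-0.025 to +0.26), Dhcr7 (-0.29 to +0.0033) and Msmo1 (-0.29 to +0.084). Against the 99th percentile of the receptors, 4 members in place of 9 lay above background on every array and 16 in place of 11 on none. With the replicate number as a replicate block, 6 members were higher at an unadjusted limma p under 0.05 and 0 passed. Deviations of same-numbered pools from their diet means correlated between -0.02 and +0.08 over the tested probe sets. These values show little shared variation by replicate number, but whether same-numbered pools were handled together was not tested.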
